A study of Triticum aestivum with 12 samples.

Results

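The axillary bud and the shoot apex of winter wheat were compared after the plants had passed through the cold. The axillary bud can grow into a tiller, and the shoot apex is the growing point of the main shoot. The comparison rests on 4 of the 12 RNA-seq libraries of the series, 2 of the vernalized axillary bud and 2 of the vernalized shoot apex, chosen by their labels alone. All plants were of the cultivar AK58, a hexaploid wheat with the sub-genomes A, B and D, and neither a mutant nor a transgene was used. Vernalized plants had spent 1 month at 4 °C under 16 h of light and 8 h of dark and were then moved to the greenhouse for 1 day. The same tissues before vernalization, used for comparison with 2 libraries each, came from plants grown for 2 weeks with days of 16 h at 22 °C and nights of 8 h at 19 °C. The vernalized plants were therefore also older, so that cold and age cannot be told apart. Buds and apices were dissected under a microscope, and each library is a bulk sample, in which fewer cells of a type and less RNA per cell cannot be told apart. The study calls its replicates biological, but no label says whether they came from separate plants or pools, so the p-values below may measure only the spread between these libraries.

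Vernalization is the prolonged cold that makes winter cereals competent to flower. The shoot apex is the place where the response ends in a change of fate, since the apical meristem stops making leaves and begins to form a spike. Axillary buds carry meristems of the same make-up in the axils of leaves, yet a bud may stay dormant or grow out as a leafy tiller. The family followed gene by gene below is that of the SQUAMOSA promoter binding-like (SPL) transcription factors, many of which are held low by the microRNA miR156 in young plants and rise with age, when they promote flowering and restrain branching.

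Values were in TPM, which counts transcripts with a correction for gene length and sums to 1000000 in each library. The read depth behind them is unknown. The bud libraries resembled each other more closely than the apex libraries did. Across genes, which are not independent replicates, Pearson's r of log10(TPM + 1) was 0.996 between the bud libraries, 0.983 between the apex libraries and 0.925 to 0.953 between the tissues. RNA of the apex was concentrated in fewer genes. The 1000 most abundant genes held 52.0 and 60.8% of all TPM in the apex libraries and 44.2 and 45.2% in the bud libraries, and 46085 and 41519 genes exceeded 1 TPM in the apex against 50836 and 50485 in the bud. Such a difference in make-up shifts all other genes on the TPM scale. The median over all 60326 tested genes was 0.43 (log2, bud minus apex) on the scale as deposited and 0.00 after median-of-ratios scaling, which sets the library level by genes found in every library. Results are therefore given on both scales. The scaling factors were 1.38 and 1.35 in the bud but 1.05 and 0.72 in the apex, so apex replicate 2 stood apart from apex replicate 1.

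More genes were called higher in the bud than in the apex with the deposited TPM. Scaling with factors from all 12 libraries reversed this balance, but scaling with factors from the 4 compared libraries did not. A gene was called when limma gave an unadjusted p under 0.01 and a difference above 2-fold on the log2(TPM + 1) scale. On the deposited scale 7778 genes were higher in the bud (12.9% of those tested) and 1565 were higher in the apex (2.59%), and 8122 and 1594 genes passed at an adjusted p under 0.05 with the same fold. After scaling with the factors from all 12 libraries, the scaling used throughout, 2532 genes were higher in the bud (4.23% of 59825 tested) and 3259 in the apex (5.45%). With factors from the 4 compared libraries alone, chosen after seeing the data, 3247 of 60117 tested genes were higher in the bud and 2839 in the apex. The share of calls that fell to the bud was 83.2% before and 43.7% after scaling with the factors from all 12 libraries. No gene was called in opposite directions on the scales. The number of genes called higher in the bud on the deposited scale also depended on the apex libraries, since it was 13056 without apex replicate 1 and 4289 without apex replicate 2, and it was 4741 without bud replicate 1. The genes called on both scales, 2532 higher in the bud (4.2%) and 1561 higher in the apex (2.59%), are the ones described below unless another scale is named. These counts moved less, to between 2163 and 3039 for the bud and between 1312 and 1643 for the apex when each of the 4 libraries was left out in turn.

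**Figure D1:**
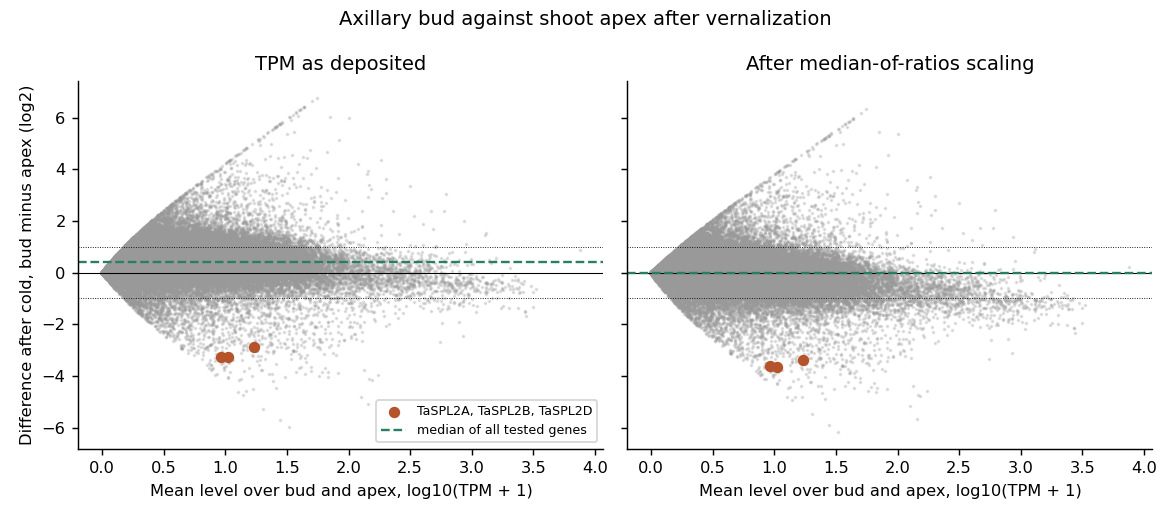
Each grey point is a tested gene, with its mean level over vernalized bud and apex on the horizontal axis as log10(TPM + 1) and the bud minus apex difference (log2) on the vertical axis, with the TPM as deposited on the left and after scaling on the right; dotted lines mark a 2-fold difference. The dashed median of all genes lies at 0.43 on the left and at 0.00 on the right, the most abundant genes lie below it in both panels, and the 3 TaSPL2 genes lie between -3.26 and -2.88 on the left and between -3.65 and -3.40 on the right.

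The direction of the difference varied with the level of the gene. Among 46382 genes with a mean under 10 TPM over the 4 libraries the median difference was 0.45 (log2, bud minus apex, deposited scale), and among 12600 genes of 10 to 100 TPM it was 0.39. Among 1239 genes of 100 to 1000 TPM it was -0.17, and of the 105 genes above 1000 TPM, 96 were lower in the bud, with a median of -0.54. After scaling these medians were 0.06, -0.22, -0.82 and -1.19. The apex thus had the higher level for most of the most abundant transcripts on either scale, while the shift of the genes of low level towards the bud was small after scaling.

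Among genes called on both scales, those of the apex had the higher level in their own tissue. All 2532 bud genes called after scaling were also called as deposited. Of the 1565 apex genes called as deposited, 1561 were also called after scaling. Each count was thus set by a different scale, so the 2 counts do not compare the tissues in number. The 1561 genes of the apex had a median of 10.6 and 9.64 TPM in the apex libraries and 2.08 and 1.93 TPM in the bud libraries. Summed, they made up 90572 and 93751 TPM in the apex and 28750 and 29307 TPM in the bud. The 2532 genes of the bud had a median of 6.05 and 5.99 TPM in the bud libraries and 0.72 and 0.43 TPM in the apex libraries, and summed to 40175 and 39876 TPM in the bud and 6609 and 4763 TPM in the apex. The libraries of the tissues did not overlap in any of these sums, a consequence of how the genes were chosen.

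The other 8 libraries, which entered the filter, the scaling and the estimate of spread but not the contrast itself, showed where else the genes were active. Before vernalization the genes of the apex summed to 79279 and 92748 TPM in the shoot apex and to 28328 and 30386 TPM in the axillary bud, close to the levels of the same tissues after the cold, and to 7349 and 8010 TPM in the leaf. The genes of the bud behaved otherwise. They summed to 22634 and 18676 TPM in the bud and to 14092 and 12396 TPM in the apex before the cold, and their largest sums were in the leaf, with 212008 and 132630 TPM before and 242570 and 265094 TPM after vernalization.

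**Figure D2:**
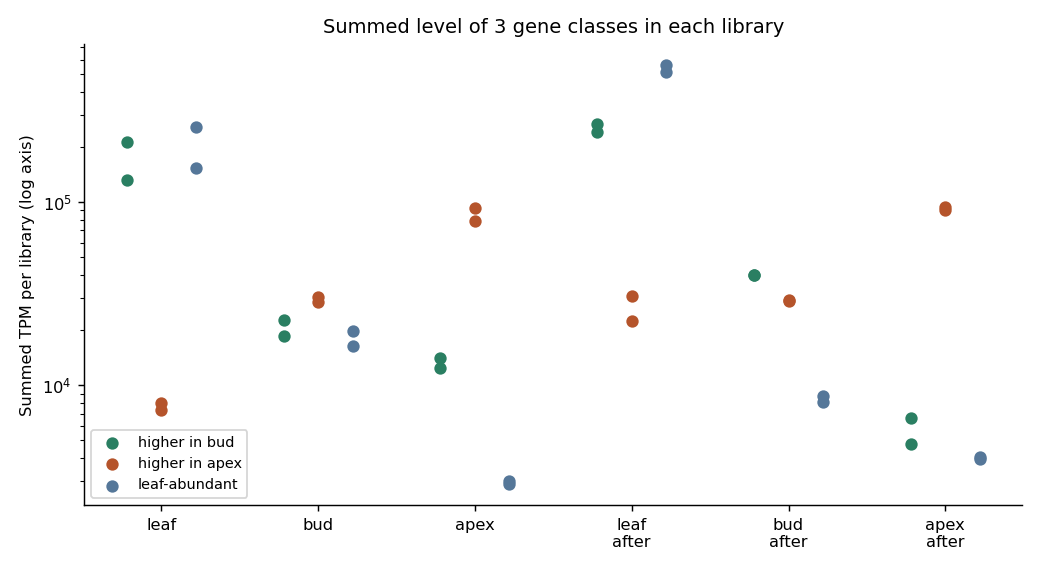
Summed TPM per library (vertical log axis, 1 point per library) of the 2532 genes higher in the vernalized bud, the 1561 genes higher in the vernalized apex and 902 leaf-abundant genes, in leaf, bud and apex before and after cold. The genes of the apex sit between 79279 and 93751 TPM in the apex libraries before and after cold, and the genes of the bud sit highest in the leaf libraries.

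Some of the genes of the bud were abundant in leaves. The series names no marker genes, so leaf expression was followed by 902 leaf-abundant genes, chosen without the 4 libraries compared here as genes above 50 TPM on average in the vernalized leaf and at least 10 times their mean in the bud and in the apex before cold. Their summed level was 8717 and 8076 TPM in the vernalized bud and 3965 and 4036 TPM in the vernalized apex, against 511675 and 560307 TPM in the vernalized leaf. Before the cold the 902 genes summed to 19824 and 16455 TPM in the bud and to 2873 and 2988 TPM in the apex, libraries that entered their choice. Of the 902 genes, 170 (18.8%) were higher in the bud and 17 (1.88%) in the apex on both scales, against 4.2% and 2.59% of all tested genes, and their median difference was 0.73 (log2) on the deposited scale and 0.31 after scaling, where all tested genes had 0.43 and 0.00. Without the leaf-abundant genes 2362 genes remained higher in the bud and 1544 in the apex. The 2362 genes still had a median of 6.00 and 5.97 TPM in the bud and 0.76 and 0.44 TPM in the apex, and they summed to less in the vernalized leaf (23428 and 22972 TPM) than in the bud (37246 and 37218 TPM).

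Most genes of the vernalized apex had already marked the apex before the cold, whereas most genes of the vernalized bud had not marked the bud. The bud and apex before vernalization are separate libraries, compared in the same fit, where 3841 genes (6.37%) were higher in the bud and 5143 (8.53%) in the apex on both scales. Of the 1561 genes higher in the apex after cold, 1006 had been higher in the apex before, which is 64.4% of the genes after and 19.6% of the genes before, against 8.53% of all tested genes, and 31 had been higher in the bud. Of the 2532 genes higher in the bud after cold, 411 had been higher in the bud before, which is 16.2% of the genes after and 10.7% of those before, against 6.37% of all tested genes. Another 415 of them had been higher in the apex before the cold, 16.4% against 8.53% of all tested genes.

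The bud-apex differences seen before the cold were on average smaller after it. The 3841 genes that marked the bud before the cold had a median difference of 1.59 (log2, bud minus apex) before and 0.75 after it on the deposited scale, and 0.28 after it on the scaled values. The 5143 genes that had marked the apex had a median of -1.55 before and -0.11 after it, and -0.59 after it on the scaled values. Genes chosen for a large difference in a set of libraries tend to show a smaller one in any other set, and how much of the decrease is of that kind was not tested. Across all tested genes, which are not independent replicates, the differences before and after cold had a Pearson's r of 0.37 on the deposited scale and 0.39 after scaling.

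**Figure D3:**
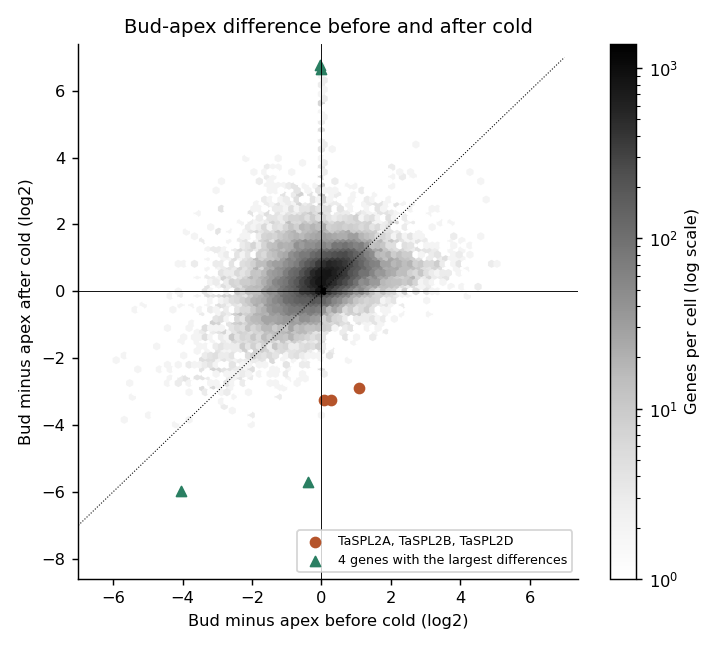
Bud minus apex difference (log2) before cold on the horizontal axis and after cold on the vertical axis, on the deposited scale, with the number of tested genes per cell in grey and a dotted line of equal values. The 3 TaSPL2 genes lie at 0.08 to 1.08 before and at -3.26 to -2.88 after cold, and 2 of the 4 genes with the largest differences lie near 0 before cold and above 6 after it.

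The difference between the contrasts was tested in itself, as the bud-apex difference after cold minus that before it, at an adjusted p under 0.05 and a size above 1 on the log2 scale. It moved towards the bud in 7958 genes (13.2%) and towards the apex in 1932 (3.2%) on the deposited scale. On both scales 4967 genes (8.23%) moved towards the bud and 1887 (3.13%) towards the apex. The deposited count towards the bud was 12054 without the apex replicate 2 from before the cold. The count towards the apex on both scales was 1200 without vernalized bud replicate 1 and 1167 without vernalized bud replicate 2, and on the deposited scale it was 1259 without the latter.

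Some genes were listed above 0 in the vernalized bud but at 0 in the vernalized apex. In 334 genes both bud libraries had at least 1 TPM while both apex libraries were listed at 0, and in 50 genes the reverse held. The bud libraries also listed fewer genes at 0, 34655 and 34870 against 40337 and 39662 in the apex. Of the 334 genes, 92 were listed at 0 in all 10 other libraries of the series, and 195 stayed under 1 TPM in each of them. Of the 50 genes of the apex, 1 was listed at 0 in all other libraries and 11 stayed under 1 TPM. The 92 genes had a median of 6.42 and 5.86 TPM in the bud libraries, reached 83.1 and 77.4 TPM, and summed to 1505 and 1343 TPM. By their identifiers they were spread over 18 chromosomes. No chromosome was given for 13 of them (14.1%), beside 707 of the 60326 tested genes and 2.17% of the 2532 genes higher in the bud. Another gene of the set stood next to 22 of them (23.9%), beside 17.7% among the 2532 genes, a share that depends on the size of the set. Without the 334 and 50 genes listed at 0 in the other tissue, 2239 genes were higher in the bud and 1511 in the apex. What the 92 genes encode, and whether their RNA came from the bud itself or from another tissue or library, was not tested.

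The largest differences were those of genes at or near 0 in the other tissue. The deposited identifiers carry no gene names, so only the extreme genes in each direction are given, without a role. TraesCS1D02G001200 (chromosome 1D) had 111.6 and 106.1 TPM in the vernalized bud and was listed at 0 in both vernalized apex libraries; before the cold it was listed at 0 in both bud libraries and had 0 and 0.07 TPM in the apex. TraesCS5D02G004100 (chromosome 5D) had 102.0 and 95.6 TPM in the vernalized bud and was listed at 0 in both vernalized apex libraries and in all 4 bud and apex libraries before the cold. Both genes were chosen for the size of this difference and passed the filter through the vernalized bud, so no test is given for them. In the leaf TraesCS1D02G001200 stayed at or under 0.32 TPM and TraesCS5D02G004100 at or under 1.13 TPM.

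The extreme genes of the apex lay close together on chromosome 2B by their identifiers. TraesCS2B02G490400 had 56.7 and 69.6 TPM in the vernalized apex and 0.03 and 0 TPM in the vernalized bud, a difference of -5.97 ± 0.30 (log2(TPM + 1), SE, 2 libraries per group). Chosen in the same way, it is likewise described without a test of this difference. It had been called higher in the apex before the cold too, with 66.0 and 98.7 TPM against 5.15 and 3.0 TPM in the bud, and the contrast moved further by -1.93. TraesCS2B02G489900 had 59.1 and 47.4 TPM in the vernalized apex and 0.07 and 0 TPM in the vernalized bud (-5.70 ± 0.24). Before the cold it had 18.1 and 18.6 TPM in the bud and 29.6 and 20.3 TPM in the apex, with both apex libraries above both bud libraries, and its contrast moved by -5.30. Its level in both vernalized bud libraries was thus below that of either bud library from before the cold.

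SPL genes are the family whose members the study pairs with identifiers. Of 53 listed SPL genes 46 were tested because their mean exceeded 1 TPM in some group, and the 7 others did not exceed 0.91 TPM in any vernalized bud or apex library. Both bud libraries exceeded both apex libraries in 27 of the 46 genes, the apex libraries exceeded the bud libraries in 14, and the libraries overlapped in 5; among all tested genes the bud libraries exceeded the apex libraries in 66% and the apex libraries the bud libraries in 12.1%. On the deposited scale 3 SPL genes were called higher in the bud and 3 in the apex, where 12.9% and 2.59% of all genes were called. After scaling none was called higher in the bud and 10 were called higher in the apex, of 45 tested, where 4.23% and 5.45% of all genes were called. The calls towards the bud depended on single libraries, with 12 without apex replicate 1, none without apex replicate 2 and 1 without either bud replicate, whereas 3 or 4 genes were called higher in the apex each time. The median difference of the family was 0.24 (log2) on the deposited scale and -0.11 after scaling, beside 0.43 and 0.00 for all tested genes.

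**Figure D4:**
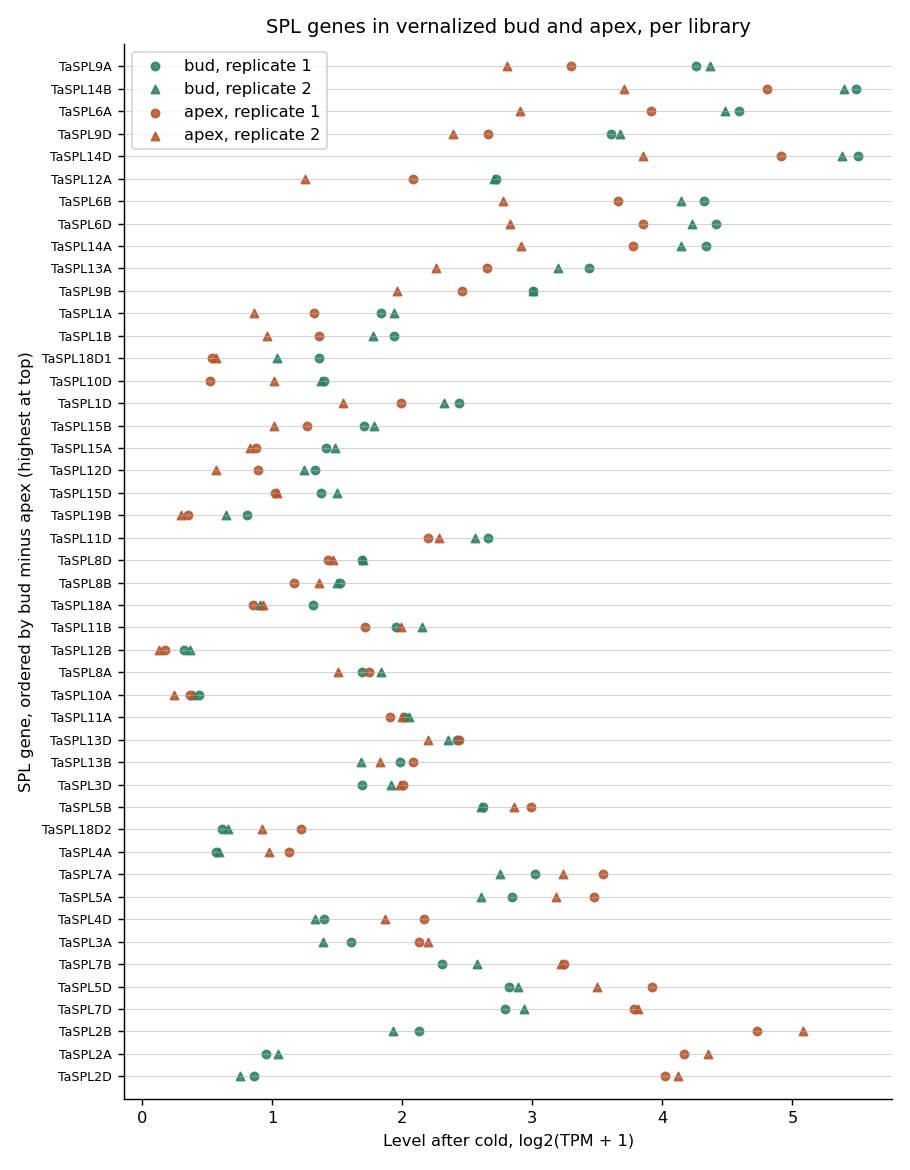
Level of each of the 46 tested SPL genes after cold, as log2(TPM + 1), in the 2 bud libraries (green) and the 2 apex libraries (brown), ordered by the bud minus apex difference on the deposited scale. The 3 TaSPL2 genes at the bottom are lower in the bud by -3.26 to -2.88, while for TaSPL9A, TaSPL14B and TaSPL6A at the top both bud libraries lie above both apex libraries, with apex replicate 2 lowest.

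TaSPL2 separated the vernalized apex from the vernalized bud more sharply than any other tested SPL gene on both scales, in all 3 homoeologues. TaSPL2A (TraesCS2A02G232400) had 16.9 and 19.4 TPM in the apex and 0.94 and 1.07 TPM in the bud. TaSPL2B (TraesCS2B02G250900) had 25.5 and 32.8 TPM in the apex and 3.37 and 2.80 TPM in the bud. TaSPL2D (TraesCS2D02G232800) had 15.2 and 16.4 TPM in the apex and 0.81 and 0.68 TPM in the bud. The lowest apex library lay well above the highest bud library for each gene. The ratio of mean TPM, apex over bud, was 18.1 for TaSPL2A, 9.45 for TaSPL2B and 21.1 for TaSPL2D. The limma differences were -3.25 ± 0.18, -2.88 ± 0.23 and -3.26 ± 0.16 (log2(TPM + 1), SE, adjusted p = 2.7e-07 for TaSPL2A and 5.7e-06 for TaSPL2B), and -3.65, -3.40 and -3.63 after scaling. TaSPL2D passed the filter only through the vernalized apex, where it is high, so no test is given for it. Outside that group TaSPL2A passed only in the vernalized bud, with a mean of 1.00 TPM. Together the 3 genes made up 18.9 and 29.0% of the summed SPL level in the apex libraries but 1.61 and 1.52% in the bud libraries.

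This separation was not present before the cold. TaSPL2B was then called higher in the bud on the deposited scale (1.08, limma adjusted p = 0.0048), but not after scaling (0.997). TaSPL2A and TaSPL2D differed by 0.28 and 0.08 before the cold and were not called. The 3 TaSPL2 genes together had 0.54 and 0.55 TPM in the apex and 1.66 and 3.01 TPM in the bud before vernalization, with both bud libraries then above both apex libraries, and 57.6 and 68.6 TPM in the apex and 5.12 and 4.55 TPM in the bud after it. In the leaf they summed to 0.98 and 1.35 TPM before and 0.15 and 0.15 TPM after the cold. The change of the bud-apex contrast with cold was -3.53 for TaSPL2A and -3.96 for TaSPL2B (limma adjusted p = 3.0e-06 and 8.4e-06). For TaSPL2D it was -3.35, given without a test because of the filter. TaSPL2B gave 63.8% of the TaSPL2 level in the bud and 46.2% in the apex, and reads that fit several homoeologues may have been divided between them by the counting.

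**Figure D5:**
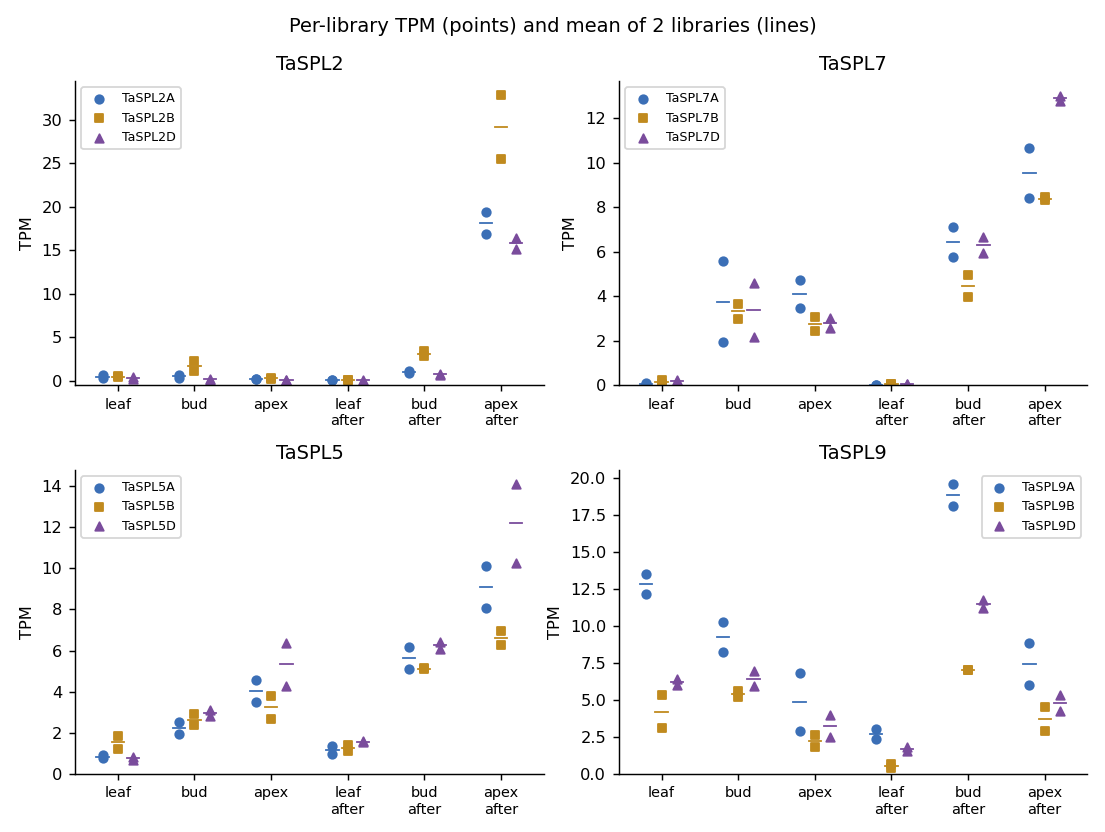
TPM of the homoeologues of TaSPL2, TaSPL7, TaSPL5 and TaSPL9 in leaf, bud and apex before and after cold, with a point per library and a line at the mean of 2 libraries. TaSPL2 exceeds 15 TPM in the vernalized apex alone, TaSPL7 and TaSPL5 are highest in the vernalized apex and next in the vernalized bud, and TaSPL9 is highest in the vernalized bud.

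TaSPL7 and TaSPL15 are the wheat counterparts of rice IPA1, a regulator of tillering and panicle branching. They leaned in opposite directions on the deposited scale, and after scaling only the TaSPL7 genes were called. TaSPL7B had 8.47 and 8.30 TPM in the vernalized apex and 3.95 and 4.96 TPM in the vernalized bud. TaSPL7D had 12.8 and 13 TPM in the apex and 5.93 and 6.66 TPM in the bud. TaSPL7A had 10.7 and 8.40 TPM in the apex and 7.13 and 5.74 TPM in the bud. The apex libraries exceeded the bud libraries for each of the 3 genes, but by less than 2-fold on the deposited log2(TPM + 1) scale. The differences there were -0.79 ± 0.20 for TaSPL7B, -0.93 ± 0.25 for TaSPL7D and -0.50 ± 0.32 for TaSPL7A (SE, limma adjusted p = 0.015, 0.019 and 0.23). After scaling they were -1.33, -1.50 and -1.06 and all 3 were called (limma adjusted p = 0.0013, 0.0088 and 0.039). Before the cold bud and apex had differed by 0.21, 0.15 and -0.20, none of which was called, and the contrast changed with cold by -1.0 for TaSPL7B (limma adjusted p = 0.031), by -1.08 for TaSPL7D (0.058) and by -0.30 for TaSPL7A (0.71).

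TaSPL15 was of lower level and stood higher in the bud on the deposited scale, where the median difference of all tested genes was 0.43. TaSPL15A had 1.66 and 1.80 TPM in the bud and 0.83 and 0.78 TPM in the apex (0.60 ± 0.15). It passed the filter only through the vernalized bud, where it is high, so no test is given for it. TaSPL15B had 2.27 and 2.45 TPM in the bud and 1.41 and 1.02 TPM in the apex (0.61 ± 0.19, limma adjusted p = 0.031). TaSPL15D had 1.59 and 1.83 TPM in the bud and 1.03 and 1.05 TPM in the apex (0.41 ± 0.15, limma adjusted p = 0.054). None reached 2-fold on the log2(TPM + 1) scale, and after scaling the differences were 0.23, 0.20 and 0.03 (limma adjusted p = 0.20, 0.28 and 0.90).

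TaSPL5A, TaSPL5D, TaSPL3A and TaSPL4D also leaned towards the apex. TaSPL5D had 14.1 and 10.3 TPM in the apex and 6.09 and 6.41 TPM in the bud. TaSPL5A had 10.1 and 8.06 TPM in the apex and 6.19 and 5.08 TPM in the bud. TaSPL3A had 3.37 and 3.60 TPM in the apex and 2.05 and 1.63 TPM in the bud, and TaSPL4D had 3.50 and 2.64 TPM against 1.64 and 1.51 TPM. The libraries of the tissues did not overlap for these 4 genes. None was called on the deposited scale, where the differences ranged from -0.60 to -0.85, and all 4 were called after scaling, at -1.16 for TaSPL5A, -1.41 for TaSPL5D, -1.10 for TaSPL3A and -1.06 for TaSPL4D (limma adjusted p = 0.0013, 1.1e-04, 0.0066 and 5.2e-04). For none of the 4 was the change of the contrast with cold called, with values between -0.36 and 0.04 on the deposited scale and adjusted p of 0.42 or more. Their homoeologues TaSPL5B, TaSPL3D and TaSPL4A were called on neither scale, with -0.31, -0.19 and -0.47 as deposited and -0.86, -0.65 and -0.71 after scaling. TaSPL3B and TaSPL4B were not tested, and the libraries of TaSPL4B overlapped between the tissues.

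TaSPL9 leaned towards the bud. TaSPL9A had 18.1 and 19.6 TPM in the bud and 8.82 and 5.98 TPM in the apex (1.26 ± 0.31, limma adjusted p = 0.012). TaSPL9D had 11.2 and 11.8 TPM in the bud and 5.31 and 4.26 TPM in the apex (1.12 ± 0.23, limma adjusted p = 0.0043). TaSPL9B had 7.02 and 7.03 TPM in the bud and 4.49 and 2.89 TPM in the apex (0.80 ± 0.27, limma adjusted p = 0.041) and was not called. The bud libraries exceeded the apex libraries for each homoeologue, as they did in 66% of all tested genes. After scaling the differences were 0.66, 0.54 and 0.26, below 2-fold, so that the calls of TaSPL9A and TaSPL9D rested on the deposited scale. Without apex replicate 2 the difference was 1.02 for TaSPL9A (limma adjusted p = 0.12) and 0.98 for TaSPL9D (0.045), and TaSPL9A also missed the threshold without either bud replicate. Scaling likewise ended the call of TaSPL12A, with 5.59 and 5.54 TPM in the bud and 3.24 and 1.39 TPM in the apex (1.05 ± 0.34, limma adjusted p = 0.037, and 0.55 after scaling), which was also lost without apex replicate 2 (0.63) or either bud replicate.

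TaSPL14 and TaSPL6 were the most abundant of the SPL genes in the bud beside TaSPL9A, and none was called. TaSPL14B had 43.8 and 41.0 TPM in the bud and 27 and 12.1 TPM in the apex, and TaSPL14D had 44.3 and 40.6 TPM against 29.1 and 13.4 TPM. TaSPL6A had 23.1 and 21.4 TPM in the bud and 14 and 6.50 TPM in the apex. Apex replicate 2 was below replicate 1 by more than 2-fold in each of them, so the spread within the apex was nearly as large as the difference from the bud. The differences were 1.18 ± 0.40, 1.06 ± 0.40 and 1.13 ± 0.37 on the deposited scale and 0.56, 0.43 and 0.52 after scaling (limma adjusted p = 0.042, 0.064 and 0.040 as deposited and 0.14, 0.25 and 0.13 after scaling). At an adjusted p under 0.05 with the same fold, TaSPL14B, TaSPL6A and TaSPL6B would join the calls towards the bud on the deposited scale, 6 in all.

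Among the TaSPL13 homoeologues the change of the contrast with cold differed in size, though they were not tested against each other. In TaSPL10A and TaSPL10D the change was towards the apex, and TaSPL10B was not tested. TaSPL13A kept both bud libraries above both apex libraries after the cold, with 9.85 and 8.16 TPM against 5.30 and 3.80 TPM. The same order held in 66% of all tested genes. For TaSPL13A the change of the contrast was 0.02 (limma adjusted p = 0.99). TaSPL13B had 2.09 and 2.23 TPM in the bud and 0.71 and 0.70 TPM in the apex before it, but 2.95 and 2.20 TPM in the bud and 3.24 and 2.56 TPM in the apex after it. It was not called before or after the cold, its libraries overlapped between the tissues after it, and the contrast changed by -1.01 (limma adjusted p = 0.013). TaSPL13D changed by -0.90 (limma adjusted p = 0.085), and by -1.29 after scaling, where the change was called (limma adjusted p = 0.0029). TaSPL10D, called higher in the bud before the cold, had 3.70 and 3.44 TPM in the bud and 0.99 and 0.79 TPM in the apex before the cold, and 1.63 and 1.60 TPM in the bud and 0.44 and 1.02 TPM in the apex after it. For TaSPL10D the change of the contrast was -0.66 (limma adjusted p = 0.11), and for TaSPL10A it was -0.75, below the size of 1 needed for a call. TaSPL10A passed the filter only through the bud before the cold, with a mean of 1.05 TPM, so its change is a description. After the cold it had 0.35 and 0.31 TPM in the bud and 0.29 and 0.18 TPM in the apex. In all, the change with cold was called towards the apex in 5 SPL genes on the deposited scale and in 7 after scaling, where 3.2% and 5.22% of all tested genes were called, and towards the bud in none on either scale, where 13.2% and 8.36% were.

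TraesCS3D02G401300, which the study uses as an example of a gene with a distant regulatory element, was not called. It had 39.8 and 37.6 TPM in the vernalized bud and 32.2 and 16.7 TPM in the vernalized apex. Both bud libraries thus exceeded both apex libraries, as in 66% of all tested genes. The difference was 0.71 ± 0.36 (95% interval -0.07 to 1.48, limma adjusted p = 0.14), and 0.08 after scaling.

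Genes of all 3 sub-genomes separated bud and apex. On both scales 4.06% of the tested A genes, 3.95% of the B genes and 4.44% of the D genes were higher in the bud, and 2.55, 2.45 and 2.77% were higher in the apex. Of the 707 tested genes without a chromosome, 7.78% were higher in the bud and 2.12% in the apex. Differences between these shares were not tested. Among 1401 triads of homoeologues with all members tested, taken from a shortened list of the study that covers only part of the genome, all 3 members were higher in the bud in 17 and in the apex in 6 on both scales. In 36 triads a single member was higher in the bud and in 22 a single member was higher in the apex. No triad had members called in opposite directions on both scales, and 1 did on the deposited scale. On that scale all 3 members were higher in the bud in 79 triads, which became 165 without apex replicate 1, 30 without apex replicate 2 and 39 without either bud replicate.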

How the data were processed

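RNA-seq was analysed in 12 libraries of winter wheat, 2 in each of 6 groups. The authors used fastp 0.21.0 for trimming, HISAT2 and the IWGSC RefSeq v1.0 genome for alignment and SAMtools 1.3.1 for sorting, and deposited 1 TPM value from TPMCalculator per gene and library; how reads shared by homoeologues were counted is not given in the sources used here. Groups were taken from the labels. From the TPM, log2(TPM + 1) of all 12 libraries was fitted with limma 3.58.1 in R 4.3.3, with 1 coefficient per group and a variance trend, for those 60326 of 107891 genes whose group mean exceeded 1 TPM in any of the 6 groups; p-values were two-sided and adjusted by Benjamini and Hochberg over all tested genes. Median-of-ratios factors came from genes above 1 TPM in every library. The script was tested on simulated data. The reference table matched none of the identifiers, so roles are not given. Genes named were all SPL genes, the gene named by the study, and the 2 largest differences in each direction that passed on both scales without overlap of libraries. The comparison and the gene lists were chosen with earlier results of these data known. Alternatives were another pseudocount, filter, scaling, moderation, replicate block, fewer libraries and leaving out each library.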

Additional observations from a re-analysis of the deposited data

Results flagged for a closer look

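In 9 of the genes named above the bud-apex difference itself differed between the contrasts before and after cold, by the limma test of the difference on both scales; values are log2 changes of bud minus apex on the deposited scale. It moved towards the apex by -3.53 in TaSPL2A, -3.96 in TaSPL2B, -3.35 in TaSPL2D, -1.0 in TaSPL7B and -1.01 in TaSPL13B, and by -1.93 in TraesCS2B02G490400 and -5.30 in TraesCS2B02G489900. It moved towards the bud by 6.83 in TraesCS1D02G001200 and by 6.64 in TraesCS5D02G004100, each listed at 0 in the vernalized apex. The 4 genes given by identifier were chosen for their difference after cold, so their change is a description. That of TaSPL2D is likewise a description, since it passed the filter only through the vernalized apex.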

How the results depend on the processing

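Several counts moved with the scaling, the filter or a single library, and the cause was not tested. The number of genes higher in the bud and in the apex after cold was 7778 and 1565 on the deposited scale, 2532 and 3259 with median-of-ratios scaling, 3247 and 2839 with factors from the 4 libraries alone (chosen after seeing the data), and 2532 in the bud when called on both scales. Leaving out each library gave 4289 to 13056 and 1347 to 1686 genes. Before cold the bud had 4829 genes, 2845 with its 4 libraries fitted alone and 3202 to 8906 without each library. For the change with cold, 7958 genes towards the bud became 5034 with a mean above 5 TPM and 5002 with scaling, 1932 towards the apex became 3123 with scaling, and leaving out each library gave 5384 to 12054 and 1259 to 2034, and 1167 to 1955 towards the apex on both scales. A fit of 4 libraries alone could not be made for this change. Among SPL genes, 3 called higher in the bud became 6 at an adjusted p under 0.05 and none (0) with either scaling, 0 to 12 without each library, and 3 called higher in the apex became 10 and 9 with the scalings. Triads with all 3 members higher in the bud went from 79 to 17 with scaling and 30 to 165 without each library, and those in the apex from 6 to 27 with scaling. The ratio of summed leaf-abundant TPM, bud over apex, was 2.10, and 1.86 and 3.50 with a looser and a stricter list and 1.31 after scaling. TaSPL13B, which was not called, ranged from -0.279 to 0.0225 without each library. TaSPL13D, not called either, went from 0.07 as deposited to -0.44 after scaling. No other gene followed through the alternatives changed the direction of its difference after cold. TaSPL2A stayed between -3.35 and -3.16 and TaSPL2B between -3.05 and -2.70 without each library. Both kept their calls in the fits with 2 libraries per group. For TaSPL2D and the 4 genes with the largest differences, the filter or the choice favoured the calls, so their persistence is not taken as support.

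With a replicate block, which also called TaSPL6A, TaSPL6B, TaSPL14B and TaSPL14D, 8057 and 1582 genes were higher in the bud and in the apex after cold, and with a block within tissue, added after seeing the data, 8377 and 1628; under either block 7 SPL genes were called higher in the bud. Deviations of replicate 1 correlated with r = 0.74 between the apices before and after cold, but with 0.11 between vernalized bud and apex, so the numbers were not taken as pairs. The depth behind the TPM is unknown, and 2 libraries per group limit the precision.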
